A study of Mus musculus with 6 samples.

Results

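The distal shared regions are stretches of open chromatin that were called in every one of 6 Omni-ATAC-Seq libraries of the newborn mouse heart and that lie away from promoters. Omni-ATAC-Seq uses a transposase that inserts adapters where DNA is accessible, so a peak of reads marks an open site. The 6 peak lists were merged into 169872 regions, of which 48861 held a peak of each library. Among these, the 16957 regions whose midpoint lay more than 10 kb and at most 100 kb from the nearest transcription start site (TSS) of any annotated gene are the distal shared regions. They took up between 13.1% and 23.1% of the peaks of a library. The other regions called in all 6 libraries were 16115 promoter regions within 1 kb of a TSS, 14882 proximal regions between 1 and 10 kb, and 907 regions beyond 100 kb. The members were thus chosen from the presence of peaks, and neither their number nor their presence is a result.

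All nuclei came from whole P1 hearts (postnatal day 1) over a 2.2 M sucrose cushion, with 50000 nuclei per library and 2 biological replicates in each of 3 groups. The paper describes nuclei from this cushion as nearly all from cardiomyocytes. Its authors chose the cushion to keep accessibility peaks of other cell types out of the Myc maps. Input was pure nuclei of wildtype (WT) hearts from this cushion, without further selection. Myc was nuclei taken by magnet-assisted immunoprecipitation (MAN-IP) with a Myc antibody from Nkx2-5 Cre/+; R26RSun1-Myc-Egfp/+ hearts, in which Cre expressed from Nkx2-5 switches on a tagged nuclear envelope protein in the Nkx2-5 lineage, and this lineage includes smooth muscle and endothelial cells as well as cardiomyocytes. PCM1 was nuclei of WT hearts taken by MAN-IP with an antibody to the centrosomal protein PCM1, which marks only a portion of cardiomyocyte nuclei. Genotype and antibody changed together between Myc and the other groups and cannot be told apart. In bulk nuclei, a change in how many nuclei of a type are present and a change of accessibility within each nucleus cannot be told apart either.

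Some facts of the libraries bear on every value below. Peaks with summits in coding exons of Sun1 (the gene of the tagged protein) that no Input library held numbered 4 and 4 in the Myc libraries, and 3 and 7 in the PCM1 libraries, whose hearts are labelled WT. The labels give no transgene for PCM1, so the comparison with promoters, the motif differences and the calls of Myc against Input are also given without these libraries. Depth, solved from the peak statistics, was 37.0 and 9.57 M tags in Input, 13.5 and 13.4 M in Myc, and 9.13 and 8.44 M in PCM1. A promoter peak was found at 17 to 20 of 20 sarcomere and Z-disc genes, at 10 to 12 of 12 fibroblast markers and at 12 of 12 endothelial markers in each library. Of 12 leukocyte markers, Input libraries had 5 and 2, Myc libraries 2 and 1, and PCM1 libraries 1 and 1. Fibroblast and endothelial markers were thus called at their promoters in all 3 groups. So were 7 to 10 of 12 neuronal genes and 5 to 6 of 11 erythroid markers in each library. Such promoter peaks alone therefore do not show which cell types were present.

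Distal open chromatin holds enhancers, which are bound by transcription factors and raise transcription of genes at a distance, and insulators, many of which are bound by CTCF and anchor chromatin loops. In the heart, the factors GATA4, NKX2-5, TBX5, MEF2, SRF, TEAD1 and MEIS1 bind such elements near genes of contraction and conduction. CpG-rich promoters carry instead many sites of the SP/KLF and ETS families, which are active in most cell types.

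The DNA of 4 of these regions shows what such elements look like, and each was the member with the highest rank in its weakest library among those with the named motif within 50 bp of the summit. All sequences are 200 bp around the median summit on the plus strand of mm10 (GRCm38), from the RefSeq genome sequence, and capitals mark the motif. Phlda3, the nearest protein-coding gene, names a CTCF match at chr1:135753008-135753207. D5Ertd579e names a match of MEF2, the family that drives muscle genes, at chr5:36713188-36713387. Atoh8 names a match of TEAD, the DNA-binding partner of YAP in the Hippo pathway, at chr6:72216744-72216943. Plppr1 names a match of the homeodomain factor MEIS at chr4:49041817-49042016.
Phlda3: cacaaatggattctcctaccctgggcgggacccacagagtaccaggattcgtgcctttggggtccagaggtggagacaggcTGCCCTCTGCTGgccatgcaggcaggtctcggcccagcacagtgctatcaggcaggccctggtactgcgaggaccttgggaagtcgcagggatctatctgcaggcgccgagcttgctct
D5Ertd579e: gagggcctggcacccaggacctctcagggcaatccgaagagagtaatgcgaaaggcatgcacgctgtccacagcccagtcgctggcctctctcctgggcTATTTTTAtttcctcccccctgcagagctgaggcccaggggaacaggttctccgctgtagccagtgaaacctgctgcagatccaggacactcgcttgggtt
Atoh8: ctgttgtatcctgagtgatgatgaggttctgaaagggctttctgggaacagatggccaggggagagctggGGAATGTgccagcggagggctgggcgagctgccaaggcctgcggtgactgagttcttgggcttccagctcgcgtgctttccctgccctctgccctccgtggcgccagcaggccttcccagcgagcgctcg
Plppr1: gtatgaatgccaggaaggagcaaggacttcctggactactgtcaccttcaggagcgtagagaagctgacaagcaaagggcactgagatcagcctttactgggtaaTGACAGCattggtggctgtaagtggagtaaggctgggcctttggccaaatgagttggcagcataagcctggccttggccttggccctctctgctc

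A region near a gene of the heart's electrical system held several cardiac motifs at once and is shown for that. It lies in an intron of Cacna1c, the pore of the L-type calcium channel, at chr6:119139619-119139818, with a GATA and a TEAD match in capitals.
Cacna1c: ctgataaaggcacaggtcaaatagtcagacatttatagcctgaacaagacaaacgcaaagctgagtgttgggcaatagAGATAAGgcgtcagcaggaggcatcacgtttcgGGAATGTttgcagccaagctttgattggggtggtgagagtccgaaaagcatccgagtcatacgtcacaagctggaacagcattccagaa

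The strongest distal shared regions ranked near the top of all regions called in the 6 libraries. The strength of a region in a library was the rank percentile of its best peak by −log10 q-value among the 48861 regions called in all 6 libraries, where 100 is the highest. The region with the highest rank in its weakest library was at chr15:85634302-85635200, 52.3 kb upstream of Wnt7b, a Wnt ligand, with a rank of at least 99.7 in every library. Its fold enrichment at the summit, the ratio of the pileup to the local background, was 21.4 and 21.9 for Input, 19.1 and 19.5 for Myc, then 20.8 and 20.8 for PCM1. Its sequence at chr15:85634522-85634721 is shown because it has the base composition of a promoter although the nearest annotated TSS, that of Gm49539, is 11332 bp from the midpoint, with a GC content of 69.0% and SP/KLF matches in capitals.
Wnt7b: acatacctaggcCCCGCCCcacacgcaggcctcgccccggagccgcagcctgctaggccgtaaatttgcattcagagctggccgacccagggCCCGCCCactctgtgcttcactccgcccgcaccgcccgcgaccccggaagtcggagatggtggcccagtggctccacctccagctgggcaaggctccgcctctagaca

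The next strongest regions were at chr12:29290773-29291476 with no protein-coding TSS within 100 kb, at chr7:73595031-73595597, 53.5 kb upstream of the chromatin remodeller Chd2, and at chr12:85454901-85455915, 18.5 kb upstream of Fos, a subunit of the AP-1 factor. The region upstream of Fos had fold values of 18 and 17.9 for Input, 16.1 and 16.9 for Myc, then 15.3 and 16.9 for PCM1. At chr12:78350774-78351269, in an intron where Gm48224 has the nearest TSS, the fold values were higher, at 33.1 and 32.2 for Input, 36 and 36.8 for Myc, then 36.7 and 36.3 for PCM1. In these fold values Input was the highest group upstream of Fos and the lowest in the intron, but the libraries differ in fold scale. After the quantile normalization described below, Myc minus Input was −0.09 and PCM1 minus Input 0.06 upstream of Fos, on the log2 scale. In the intron both differences were −0.08, so neither order held. The sixth was at chr15:98181034-98181755, near the olfactory receptor gene Olfr288. None of these 6 regions was called in a comparison of groups, and the lowest adjusted p among them was 0.0932 (limma, Myc against PCM1, the region near Wnt7b).

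Most distal shared regions were weaker than promoters. Their median rank percentile was 39.0 and 39.2 in the Input libraries, 38.8 and 39.1 in Myc, and 40.0 and 39.9 in PCM1. That of the promoter regions was 75.7 and 75, 79.1 and 78.3 for Myc, then 72.6 and 72.0 for PCM1. Distal regions lay below promoters in 6 of 6 libraries. The difference was −36.1 ± 3.32 percentile points (SD over libraries, n = 6; exact permutation test, two-sided, flipping the sign of each library, p = 0.0312, adjusted 0.0312, the smallest p that 6 libraries allow). The median fold enrichment was 10.5 and 8.24 for Input, 9.27 and 9.52 for Myc, then 7.87 and 8.0 for PCM1 for distal regions. For promoters it was 13.9 and 12.0 for Input, 13.1 and 13.2 for Myc, then 10.6 and 10.7 for PCM1, and the difference was −3.36 ± 0.51 (SD, n = 6 libraries; same exact permutation test, p = 0.0312, adjusted 0.0312). Without the PCM1 libraries, the differences were −38.0 and −3.68, and 4 libraries allow no p below 0.125. The libraries are of the same regions, so they are not independent draws of regions. Single members ranged from 2.14-fold to 45.5-fold.

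**Figure D1:**
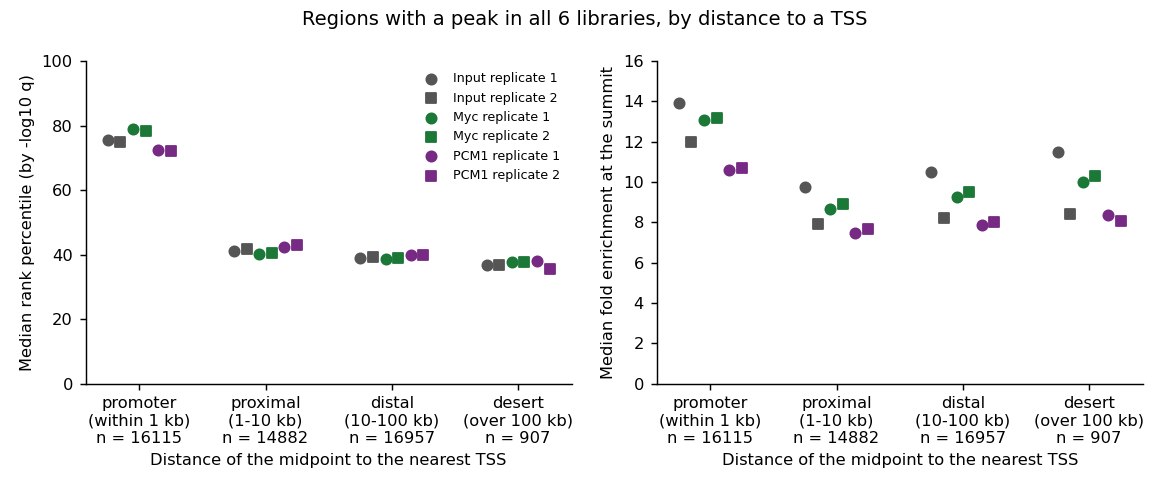
Median rank percentile and median fold enrichment (vertical axes) of the regions called in all 6 libraries, by library (points, colored by group) and by distance class (horizontal axis). Distal regions lay at a median rank between 38.8 and 40.0 in every library and promoters between 72.0 and 79.1.

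The distal regions were compact. Their median length was 594 bp, with quartiles at 485 and 736 bp, against 876 bp for promoters. The summits of the 6 libraries spread over a median of 67 bp, and in 68.5% of members they lay within 100 bp of each other, against 72.5% of promoters. The range of rank percentile over the 6 libraries had a median of 28.3 points in members against 16.7 in promoters. Promoters lie nearer the top of the rank scale, which leaves less room for such a range.

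The median distance to the nearest TSS was 22137 bp, and 7483 members (44.1%) lay between 10 and 20 kb. The bins of 20 to 30, 30 to 50, 50 to 75 and 75 to 100 kb held 3686, 3381, 1659 and 748 members. The median of the mean rank over libraries was 38.0, 38.1, 37.8, 35.6 and 34.5 in these 5 bins in turn, a description of regions that passed the same rule. The 3 members just beyond the 10 kb limit, at 10002, 10003 and 10003 bp, had mean ranks of 53.0, 20.9 and 58.4, and the 3 regions just short of it, at 10000, 9996 and 9995 bp, had 46.6, 69.6 and 24.7. At the 100 kb limit, mean ranks were 49.6, 30.1 and 8.65 just inside and 27.5, 33.1 and 38.0 just outside. With 3 regions a side these are only examples.

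By midpoint, 52.4% of members lay in introns, 44.9% between genes, 1.63% in noncoding exons or UTRs and 1.09% in coding exons. The 59549 distal regions called in only 1 to 5 libraries gave nearly the same shares, with 52.5% in introns and 44.6% between genes. Of 76506 distal merged regions, 22.2% were called in all 6 libraries, against 56.5% of 28537 promoter regions. Per Mb of chromosome, the autosomes held between 5.16 and 8.92 members, highest on chromosome 11, and chromosome X held 1.49.

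In base composition the distal shared regions lay between promoters and their own surroundings. In the 200 bp around the summit, GC content was 51.5%, against 64% in promoter regions and 45.0% in 31220 windows 2 kb to either side that held no peak. The ratio of observed to expected CpG had a median of 0.212 against 0.738 in promoters and 0.168 in the flanks, so it was closer to the flanks. Repeats made up 7.13% of the bases against 5.33% in promoters and 26.4% in the flanks, so this share was closer to promoters.

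Binding motifs of 14 factor families were searched on both strands in these 200 bp windows, with their letters as MEF2 (TAAAAATA), the GATA factors (AGATAAG), TEAD (ACATTCC), NKX2-5 (TCAAGTG), TBX (AGGTGTG), ESRR (TCAAGGTCA), MEIS (TGACAGC), AP-1 (TGANTCA), ETS (CCGGAAGT), SP/KLF (GGGCGGG), RUNX (AACCACA) and SOX (ACAATGG), and with CTCF and SRF by their longer motifs. No motif contains another, although matches can share end bases. A match is a run of letters and not evidence of binding. CTCF stood far out, with a match in 5.28% of members against 0.106% of flanking windows, a ratio of 49.8. With 400 bp windows the ratio was 22.6, and with flanks at 5 kb it was 37.2. Promoters held it in 2.57%.

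Of the 8 cardiac motifs, 7 stood above the flanks, by smaller ratios than CTCF, and TBX lay below them. TEAD was found in 6.21% of members against 2.75% of flanks, GATA in 5.52% against 2.54%, MEF2 in 5.23% against 3.32%, and MEIS in 8.31% against 3.36%. Promoters held TEAD in 2.35%, GATA in 1.71%, MEF2 in 1.33% and MEIS in 5.0%. Smaller gaps over the flanks were seen for NKX2-5 (3.86% and 2.93%), ESRR, the estrogen-related receptors that drive mitochondrial genes (0.808% and 0.484%), and SRF, the factor of serum response and muscle genes (1.5% and 1.14%). AP-1 was the most frequent motif, with 9.87% of members and 5.82% of flanks.

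Promoters differed most in SP/KLF, with 38.9% against 3.64% of members, and in ETS, with 5.58% against 0.36%. Of the 14 motifs, 12 were more frequent in members than in flanks, and TBX (2.85% and 5.09%) and RUNX (3.87% and 4.96%) were less frequent. Compared with distal regions called in 1 to 5 libraries, the share was 1.74 times as high for SP/KLF, 1.58 times for CTCF, 1.58 times for MEF2 and 1.01 times for AP-1. For the other cardiac motifs the ratio was nearer to even or below it. It was 1.33 for MEIS, 1.24 for SRF, 1.15 for GATA, 1.1 for TEAD, 1.08 for NKX2-5, 0.96 for ESRR and 0.804 for TBX. At 8868 members (52.3%) none of the 14 motifs was found, and 753 (4.44%) held at least 2 of the 8 cardiac motifs (MEF2, GATA, TEAD, NKX2-5, TBX, ESRR, SRF and MEIS).

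**Figure D2:**
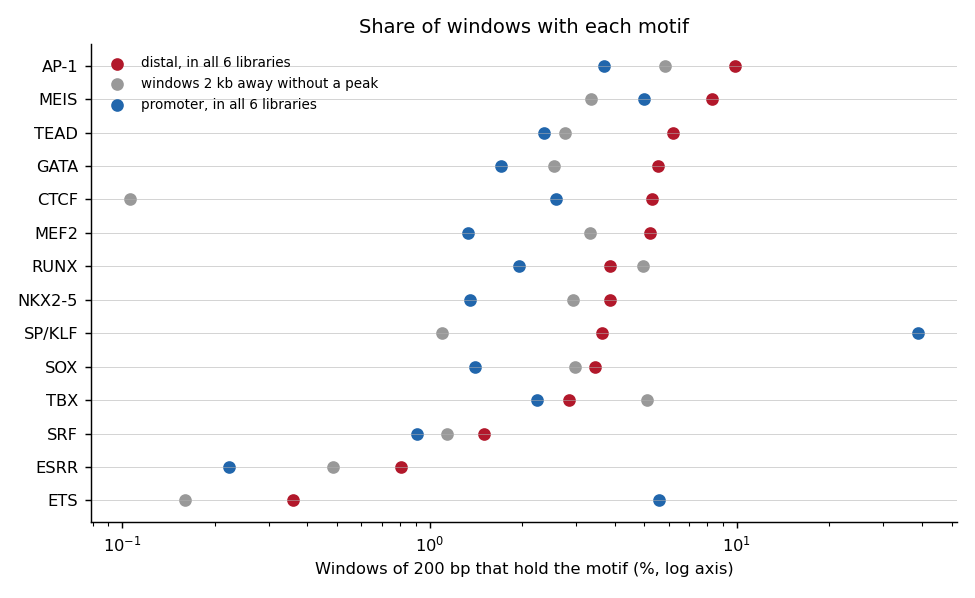
Percent of 200 bp windows with each motif (horizontal axis, log scale) in the distal shared regions, in flanking windows without a peak and in promoter regions. The vertical axis names the motif. CTCF lay at 5.28% in the distal shared regions and 0.106% in the flanks, and SP/KLF at 38.9% in promoters.

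Matches gathered at the summit. Within 50 bp of it, CTCF matches were 57.6 times as dense as 300 to 500 bp away, while the ratio was 2.7 for TEAD, 2.68 for MEIS, 2.55 for GATA and 2.29 for MEF2. TBX matches were less dense at the summit, with a ratio of 0.518. At their densest distance, in bins of 25 bp, CTCF reached 19.8 matches per 1000 regions, MEIS 13.3 and MEF2 11.3. In the CTCF region near Phlda3 shown above, the match was centred 13.0 bp before the summit, and in the MEF2 region near D5Ertd579e 3.0 bp after it.

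**Figure D3:**
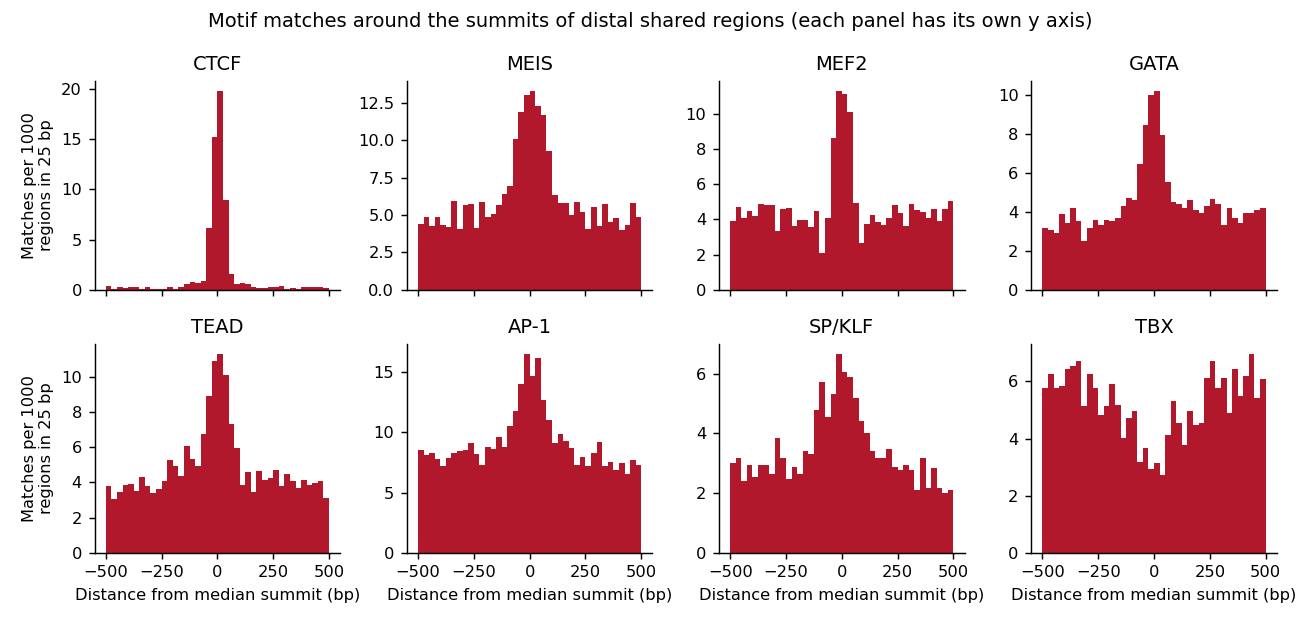
Motif matches per 1000 distal shared regions in 25 bp bins (vertical axis) by distance of the match from the median summit in bp (horizontal axis). CTCF reached 19.8 per 1000 in the bin next to the summit, and MEF2 and MEIS showed lower and broader maxima.

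For 14065 of the distal shared regions (82.9%), the TSS of a protein-coding gene lay within 100 kb, and 8535 (50.3%) lay in the body of such a gene. As nearest protein-coding gene, 5795 of 21911 genes (26.4%) had at least 1 member, with a mean of 0.642 members per gene. A gene with few neighbours has more distal sequence to hold members, and the nearest gene need not be the gene a region acts on. The genes with the most members were Arhgap26 (25), the guanine exchange factor Kalrn (25), Gse1 (21), the phosphodiesterase Pde4d (20), Zmiz1 (20) and Cacna1c (19).

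Of 20 cardiac transcription factors, 17 (85.0%) had members, 73 in all. Prox1, a homeobox factor of heart and lymphatic development, had 11, with mean ranks from 8.91 to 79.9 and a median of 49.0. Tead1 had 10, the nuclear receptor Esrrg 8, and Gata6, Meis1 and Myocd had 7 each. The strongest member of Gata6 lay 86.1 kb downstream of the gene, with fold values of 22.3 and 23.0 for Input, 17.3 and 19.0 for Myc, then 20 and 20.8 for PCM1. The strongest member of Prox1, at chr1:190201586-190202284, had 20.2 and 17.1 for Input, 19.7 and 16.3 for Myc, then 14.7 and 19.3 for PCM1. In these fold values the 2 Input libraries were highest and the 2 Myc libraries lowest at Gata6, while at Prox1 the groups overlapped. After the normalization described below, Myc minus Input at Gata6 was −0.3 and PCM1 minus Input 0.01 on the log2 scale. Nkx2-5, Srf and Isl1 had no member.

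Of 20 sarcomere and Z-disc genes, 10 (50%) had members, 23 in all. Actn2, the Z-disc crosslinker alpha-actinin, had 6, and Ttn, the giant spring protein titin, and Tpm1, a thin filament tropomyosin, had 4 each. The strongest member of Ttn, at chr2:76998289-76998819, 16 kb upstream, had fold values of 28.0 and 23.3 for Input, 19.9 and 20.3 for Myc, then 23.4 and 25.5 for PCM1. Here too the Myc libraries were the lowest. Myh6, Myh7, Tnnt2, Tnni1 and Tnni3, which encode myosin heavy chains and troponins, had no member.

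Of 20 calcium handling and ion channel genes, 16 (80%) had members, 72 in all. Cacna1c had 19, of which 18 lay in introns, with mean ranks from 9.32 to 93.8. Its strongest member, at chr6:119139358-119140062, had 21.4 and 19.7 for Input, 19.1 and 19.9 for Myc, then 17.8 and 17.8 for PCM1. Ryr2, the calcium release channel of the sarcoplasmic reticulum, had 10, and Cacnb2, a calcium channel subunit, had 5. The strongest member of Ryr2, at chr13:12133384-12134173, 26.8 kb upstream, had 16.1 and 15.6 for Input, 14.3 and 13.3 for Myc, then 13.8 and 13.4 for PCM1. That these sites were open in every library follows from the rule that chose them.

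Genes of other heart cells had members as well, 26 at 9 of 12 fibroblast markers (75%), 33 at 9 of 12 endothelial markers (75%), 12 at 7 of 12 smooth muscle and pericyte markers (58.3%) and 6 at 4 of 12 epicardial markers (33.3%). Among the remaining lists, 3 of 12 leukocyte markers (25%) had 3 members and 3 of 12 neuronal genes (25%) had 14. Of 12 liver genes, 2 (16.7%) had 2 members, and 0 of 11 erythroid markers had one. The neuronal genes thus held a mean of 1.17 members per gene, above the 0.642 of all genes, and the epicardial markers 0.5. The first 4 of these shares lay above the 26.4% of all genes and the others below it, as values without a test.

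Many members were grouped. When neighbours were joined at the stitching distance customary for super-enhancers, 3087 clusters of 2 or more held 7671 members (45.2%), and 140 clusters of 5 or more held 791 (4.66%). The cluster with the most members, 11 over 54.9 kb at chr2:163332414-163387279, had Tox2 and Jph2 as nearest genes, the latter the junctophilin that ties the cell membrane to the sarcoplasmic reticulum in cardiomyocytes. Clusters of 10 members lay at chr11:101814663-101874602 near Etv4 and Meox1, and at chr8:120264688-120323537 near Gse1. Within these 3 clusters the mean rank ran from 5.98 to 90.1, from 6.78 to 73.8 and from 6.64 to 93.2, so weak and strong members lay side by side.

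Members with a SP/KLF, MEF2, MEIS, SRF, TEAD or NKX2-5 motif were stronger than those without it in 6 of 6 libraries. The difference in median rank percentile was 8.0 ± 1.33 for SP/KLF, 5.23 ± 0.795 for MEF2, 4.49 ± 2.35 for MEIS, 4.24 ± 1.89 for SRF, 3.7 ± 0.789 for TEAD and 3.56 ± 2.22 for NKX2-5 (mean ± SD, n = 6 libraries). Members with AP-1 or RUNX motifs were weaker in 6 of 6 libraries, by −1.97 ± 0.816 and −3.75 ± 1.55. For each of these 8 motifs, the two-sided exact permutation test gave p = 0.0312, the smallest that 6 libraries allow, and 0.0547 after Benjamini-Hochberg adjustment over 14 motifs, so none passed 0.05 and this design could pass it only if more motifs moved one way in every library. For GATA the difference was 1.67 ± 2.23 (exact permutation p = 0.188).

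Some of these differences depended on the window and the scale. With 400 bp windows, the difference was 7.17 for SP/KLF, 3.9 for MEF2 and 3.01 for MEIS, each in the same direction in 6 of 6 libraries, but 1.81 for TEAD and 1.41 for SRF (exact permutation p = 0.0625 for both) and 1.06 for NKX2-5 (exact permutation p = 0.219). For AP-1 it was −1.03 (exact permutation p = 0.0625). In median fold enrichment in place of rank, SRF gave 0.0759 ± 0.228 (SD, n = 6 libraries; exact permutation p = 0.5), with both Input libraries lower with the motif than without it (10.4 against 10.5, and 7.96 against 8.25), and MEIS gave 0.396 ± 0.288 (exact permutation p = 0.0625). Without the PCM1 libraries, the 8 differences kept their direction and lay between −3.37 for RUNX and 8.54 for SP/KLF, while GATA fell to 0.495, TBX to 0.463 from 1.25, and ESRR to −0.443 from 1.67.

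CTCF gave the widest spread between libraries, 3.36 ± 10.4 (exact permutation p = 0.438), and the spread ran along the groups. Members with the CTCF motif had a median rank of 53.9 and 53.2 in the Myc libraries against 37.7 and 38.3 for members without it, a difference of 16.2 and 15.0. In the PCM1 libraries the order was the opposite, with 33.7 and 31.8 against 40.4 and 40.4, or −6.68 and −8.54. The Input libraries lay between, at 1.28 and 2.99. Without the PCM1 libraries the mean was 8.85 ± 7.8 (SD, n = 4 libraries). Myc and PCM1 differed in depth as well, and the part of depth was not tested. In fold enrichment, members with the motif had medians of 11.3 and 8.65 for Input, 12.3 and 12.2 for Myc, then 7.48 and 7.38 for PCM1. The GATA motif went the other way, with 3.7 and 4.32 in PCM1 and −0.169 and −1.32 in Myc, as did MEIS with 5.63 and 6.31 in PCM1, 5.68 and 6.35 in Input, and 1.71 and 1.28 in Myc. With 2 libraries against 2, an exact permutation test of such values cannot reach 0.05, and none was run.

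**Figure D4:**
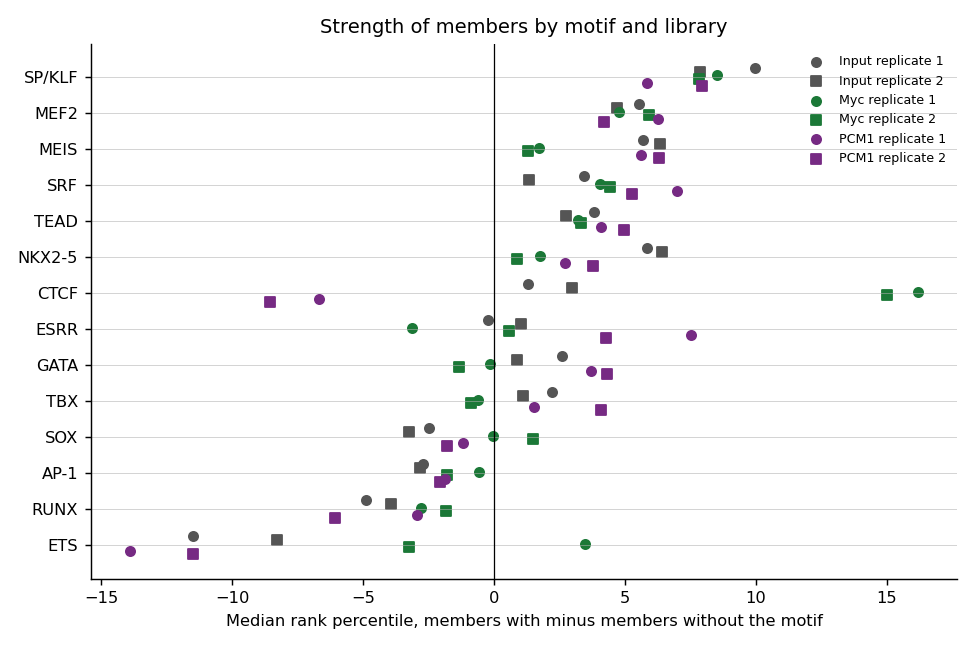
Median rank percentile of distal shared regions with a motif minus that of regions without it (horizontal axis, percentile points), for each motif (vertical axis) and library (points, colored by group). For CTCF the Myc libraries lay at 16.2 and 15.0, Input at 1.28 and 2.99, and PCM1 at −6.68 and −8.54.

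Accessibility was then compared between groups at each member, to see whether sites open in all libraries were equally open. The log2 fold enrichment of all 48861 regions was quantile-normalized and fitted with limma, and an adjusted p under 0.05 over all of them was a call. The number of members called against Input depended strongly on the scale of the values. On the main scale, in Myc 8 members (0.0472%) were higher and 34 (0.201%) lower than in Input, beside a background over all 48861 regions of 0.0634% higher and 0.141% lower. In PCM1 20 (0.118%) were higher and 50 (0.295%) lower than in Input, beside 0.0778% and 0.256%. On log2 pileup, 332 members were higher and 1165 lower in Myc, and 582 higher and 424 lower in PCM1. All 48861 regions on that scale gave 2321 higher and 3318 lower in Myc, and 1756 higher and 2532 lower in PCM1. For PCM1 the balance of the members was thus opposite to that of all regions. On rank percentile, 80 members were higher and 628 lower in Myc, and 82 higher and 56 lower in PCM1. Of all 48861 regions, 620 were higher and 1794 lower in Myc, and 251 and 737 in PCM1. On the main scale at an unadjusted p under 0.05, 1113 members were higher and 1592 lower in Myc, and 1116 and 1293 in PCM1. In both directions together these were 2705 and 2409 members, beside 7345 and 6773 of all 48861 regions. For every called member, the libraries of the 2 groups did not overlap. Among uncalled members the groups overlapped in only 9047 of 16915 for Myc and 9828 of 16887 for PCM1. Many uncalled members were thus apart as well, and being apart does not set the called ones off.

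These counts and their directions moved with single libraries. For Myc against Input, the 42 calls became 5 without Input replicate 1, 2 without Input replicate 2, 6 without Myc replicate 1, 24 without Myc replicate 2, 206 without PCM1 replicate 1 and 189 without PCM1 replicate 2. Without Input replicate 1 these were 5 higher and 0 lower, and without Input replicate 2 they were 2 higher and 0 lower by limma, where all 6 libraries had given 8 higher and 34 lower, and the members at an unadjusted p under 0.05 numbered 2513 and 1523 in both directions together. For PCM1 against Input, the 70 calls became 8 and 7 without Input replicates 1 and 2, 44 and 44 without Myc replicates 1 and 2, and 158 and 145 without PCM1 replicates 1 and 2. Of the 8 calls without Input replicate 1, 6 were higher, and of the 7 without Input replicate 2, 4 were higher, where all 6 libraries had given 20 of 70. With both PCM1 libraries left out, an alternative added after the data were seen, 183 members differed between Myc and Input, 62 higher and 121 lower. The balance of directions moved with the scale too, since 28.6% of the PCM1 calls were higher than Input on the main scale, 57.9% on log2 pileup and 59.4% on rank percentile, and 19.0% of the Myc calls on the main scale and 11.3% on rank percentile.

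A few members stood apart from Input in both groups of immunoprecipitated nuclei. The region at chr14:104715690-104716088, in an intron of the noncoding gene D130009I18Rik, had fold values of 8.67 and 5.43 for Input, 28.4 and 23.5 for Myc, then 32.5 and 30.8 for PCM1. The difference on the log2 scale was 1.98 ± 0.14 (SE) for Myc (limma, adjusted p = 7.03e-06) and 2.24 ± 0.14 for PCM1 (limma, adjusted p = 2.26e-06). In an intron of Plekha1, an adaptor protein that binds phosphoinositides, the region at chr7:130834322-130834732 had 6.67 and 4.96 for Input, 15.6 and 12.9 for Myc, then 19.9 and 19.0 for PCM1 (limma, 1.32 ± 0.19, adjusted p = 0.00937, and 1.94 ± 0.19, adjusted p = 9.98e-05). In both regions every immunoprecipitated library lay above both Input libraries.

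The region of Slc1a2, a glutamate transporter, at chr2:102829280-102829569 had 9.08 and 9.39 for Input, 17.7 and 15.0 for Myc, then 33.3 and 30.9 for PCM1, and rose by 1.84 ± 0.14 in PCM1 (limma, adjusted p = 1.48e-05) and by 0.84 ± 0.14 in Myc (limma, adjusted p = 0.0278). The region of Tacc1, a centrosomal protein, at chr8:25267809-25268313 was called higher than Input in Myc and not in PCM1, with 3.51 and 4.45 for Input, 11.9 and 9.67 for Myc, then 4.55 and 4.08 for PCM1 (limma, 1.36 ± 0.26, adjusted p = 0.045, and 0.22 ± 0.26, adjusted p = 0.753). The region of Scnn1g, a subunit of the epithelial sodium channel, at chr7:121767839-121768328 was lower in both, with 16.1 and 14 for Input, 4.1 and 4.52 for Myc, then 5.24 and 5.25 for PCM1 (limma, −1.73 ± 0.24, adjusted p = 0.00916, and −1.31 ± 0.24, adjusted p = 0.033). The other members with the largest falls in Myc were at chr6:91389055-91389695 near Wnt7a (limma, −1.4, adjusted p = 0.0398) and at chr2:16892276-16892989 (limma, −1.31, adjusted p = 0.0374).

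The Myc and PCM1 libraries differed from each other at many more members, and matches of the CTCF motif lay on the side of Myc. Of 16957 members, 631 (3.72%) were higher and 532 (3.14%) lower in Myc than in PCM1, beside 4.5% higher and 2.9% lower of all 48861 regions. The median difference was 1.92-fold among the higher members and 1.67-fold among the lower. Median fold values of the higher members were 13.1 and 9.88 for Input, 14.9 and 14.8 for Myc, then 6.47 and 6.31 for PCM1. Those of the lower members were 15.1 and 12.6 for Input, 9.69 and 10 for Myc, then 13.6 and 14.4 for PCM1. These medians describe members chosen from the same values. The mean of the Input libraries lay between the 2 groups for 585 (92.7%) of the higher and 438 (82.3%) of the lower members.

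The higher and the lower members differed in place and length. Of the higher, 33.4% lay in introns with a median length of 534 bp. Of the lower, 59.0% lay in introns with a median of 622 bp. The uncalled members, with 52.9% in introns and a median of 597 bp, were closer to the lower ones. Of members called in this contrast, 54.3% were higher in Myc, against 75.5% of the called promoter regions (1022 higher and 331 lower). That share of members was 46.4% after median centring, 32.7% on log2 pileup, 31.0% on rank percentile and 52.8% to 72.2% with single libraries left out, so the balance of directions is not a firm value. The number of calls also moved, from 1163 to 557 without Input replicate 1, 426 without Input replicate 2, 143 without Myc replicate 1 and 267 without Myc replicate 2. Myc libraries were deeper than PCM1 libraries (13.5 and 13.4 M against 9.13 and 8.44 M tags), and depth and group cannot be told apart here.

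The CTCF motif was found in 183 of the 631 higher members (29.0%), in 0 of the 532 lower members and in 713 of the 15794 others (4.51%). Counted the other way, 183 of 896 members with the motif (20.4%) were higher in Myc and 0 were lower by limma, with 387 and 11 at an unadjusted p under 0.05. Of the 16061 members without it, 448 (2.79%) were higher and 532 (3.31%) lower, with 1481 and 2184 at an unadjusted p under 0.05. The difference of Myc minus PCM1 had a median of 0.43 on the log2 scale with the motif, or 1.35-fold, and −0.06 without it, and lay above 0 in 763 of the 896 (85.2%) against 43.3% of the others. Against Input, members with the motif had medians of 0.25 in Myc and −0.16 in PCM1, of which 12 were lower and 1 higher than Input by limma in PCM1. The CTCF pattern was noticed in these data and is given as a description.

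The median kept its direction in every alternative fit on a log2 scale. The median with the motif ran from 0.398 to 0.448 with single libraries left out and was 0.48 on log2 pileup. The motif was found in 21.9% to 41.5% of the higher members under every fit, while members with the motif that were called lower numbered 21 on log2 pileup, 8 on rank percentile and 1 after median centring or without PCM1 replicate 2. The share of the motif's members that were called fell from 20.4% to 12.7% and 11.0% without Input replicates 1 and 2, and to 3.79% and 5.47% without Myc replicates 1 and 2. Proximal regions showed the same order of shares, with the motif in 30% of those higher in Myc, 1.34% of those lower and 6.34% of the rest, and promoter regions had 5.38%, 0.906% and 2.41%. Members with the motif were also shorter (515 against 594 bp) and had closer summits (49 against 67 bp).

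**Figure D5:**
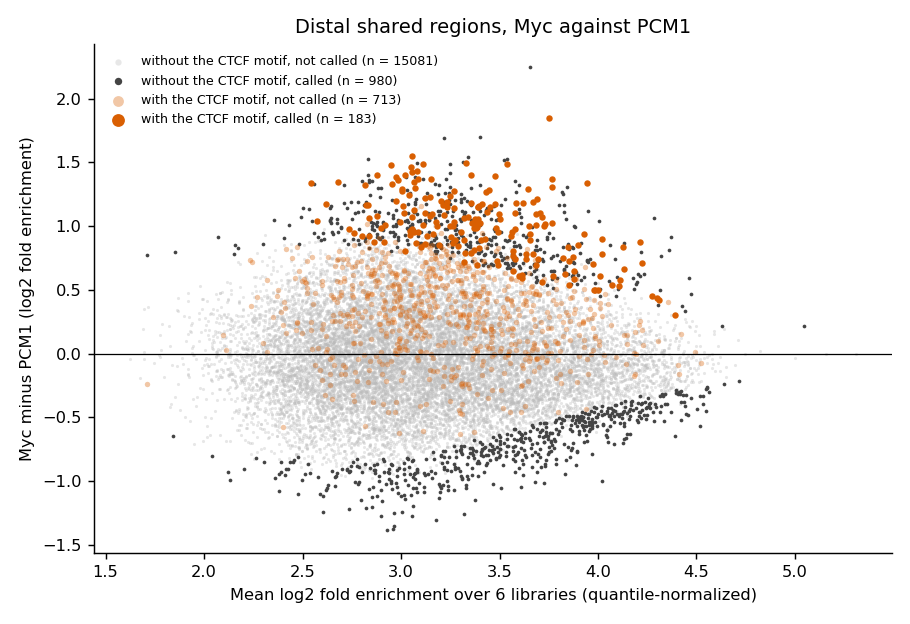
Difference of Myc minus PCM1 in log2 fold enrichment (vertical axis) by mean log2 fold enrichment over the 6 libraries (horizontal axis). Points are the distal shared regions, colored by the CTCF motif and by whether they were called. The median difference was 0.43 with the CTCF motif and −0.06 without it, and 29.0% of the higher and 0.0% of the lower members held the motif.

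Several motifs of cardiac factors were less frequent in the higher members than in the uncalled ones. GATA was found in 1.27% of the higher, 6.02% of the lower and 5.67% of the uncalled members. MEIS was found in 4.75%, 11.7% and 8.34% of these, TEAD in 3.33%, 8.08% and 6.26%, and ESRR in 0.158%, 1.5% and 0.81%. For GATA the lower members were thus close to the uncalled ones. The members with the largest differences show both kinds, and the sequence of 1 of each is given. The CTCF region at chr10:7333248-7333738, with Gm21321 as nearest gene, had fold values of 22.9 and 14 for Input, 22.5 and 23.7 for Myc, then 5.57 and 5.78 for PCM1 (limma, Myc minus PCM1 1.85 ± 0.18, adjusted p = 0.00027). The MEIS region at chr14:45962490-45962924, with Gm49192 as nearest gene, had 7.06 and 6.92 for Input, 5.33 and 4.93 for Myc, then 11.5 and 12.1 for PCM1 (limma, −1.38 ± 0.24, adjusted p = 0.00593). The sequences span chr10:7333444-7333643 and chr14:45962558-45962757.
Gm21321: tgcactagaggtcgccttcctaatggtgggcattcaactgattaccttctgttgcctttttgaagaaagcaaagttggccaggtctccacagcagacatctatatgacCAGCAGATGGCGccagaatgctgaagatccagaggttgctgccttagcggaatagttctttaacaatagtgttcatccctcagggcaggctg
Gm49192: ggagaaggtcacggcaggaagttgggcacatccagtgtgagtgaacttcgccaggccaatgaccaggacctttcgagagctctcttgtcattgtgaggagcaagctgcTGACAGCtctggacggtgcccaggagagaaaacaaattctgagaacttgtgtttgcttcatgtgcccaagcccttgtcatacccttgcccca

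The member with the largest difference was at chr2:39373055-39373476, with Gm13506 as nearest gene and none of the motifs, and fold values of 24.8 and 15.8 for Input, 22.0 and 23.6 for Myc, then 4.55 and 4.2 for PCM1 (limma, Myc minus PCM1 2.25 ± 0.19, adjusted p = 4.92e-05). The third was at chr3:146914673-146915172 near Ttll7, a tubulin ligase (limma, 1.7 ± 0.20, adjusted p = 0.00133). At each of these the PCM1 libraries were low, with Input and Myc together, and PCM1 was also below Input at the intergenic CTCF region at chr8:18564415-18565013, 30.4 kb upstream of the chromosome condensation gene Mcph1 (limma, −1.66 ± 0.25, adjusted p = 0.0107). Lower in Myc were regions at chrX:102280284-102280758 near the transcriptional regulator Cited1 (limma, −1.38 ± 0.28, adjusted p = 0.0122) and at chr4:105299375-105300202 near Gm12722 (limma, −1.35 ± 0.27, adjusted p = 0.0111).

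At the listed heart genes, the calls between Myc and PCM1 are set beside the 3.72% higher and 3.14% lower of all members. Of 73 members of cardiac transcription factors 1 was higher and 3 lower in Myc, of 23 members of sarcomere genes 2 were higher and 1 lower, and of 72 members of calcium handling and ion channel genes 0 were higher and 4 lower by limma, with 3 and 15 at an unadjusted p under 0.05. The median difference was −0.0916, −0.162 and −0.137 on the log2 scale in these lists, beside −0.0412 over all members. Other lists had medians as low or lower, with −0.177 for endothelial markers, −0.219 for smooth muscle and pericyte markers and −0.235 for neuronal genes, while fibroblast markers had 0.0192. Of 33 members of endothelial markers 0 were higher and 1 lower by limma (0 and 8 at an unadjusted p under 0.05), and of 26 members of fibroblast markers 0 and 0 (2 and 3 at an unadjusted p under 0.05). Of 12 members of smooth muscle and pericyte markers the calls were 0 and 0 (1 and 1 at an unadjusted p under 0.05), and of 6 members of epicardial markers 1 was higher and 0 lower. Against Input, the 3 heart lists together had 2 calls in Myc and 1 in PCM1, all in the calcium and channel list.

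Among members of listed heart genes, those called lower in Myc than both other groups had the conduction genes Gja5 or Hcn4 as nearest protein-coding gene. Gja5 encodes connexin 40 of atrial and Purkinje cells. The region assigned to it, at chr3:97062726-97063391, lay in an intron 30.6 kb downstream of the Gja5 TSS. The TSS of 4930573H18Rik was nearer, at 29726 bp. Fold values of this region were 25.4 and 24.4 for Input, 17.6 and 19.1 for Myc, then 24.0 and 23.0 for PCM1. It was lower in Myc by −0.44 ± 0.08 against Input (limma, adjusted p = 0.0354) and −0.48 ± 0.08 against PCM1 (limma, adjusted p = 0.0045). Its sequence at chr3:97062943-97063142 holds a NKX2-5 and a MEIS match, in capitals.
Gja5: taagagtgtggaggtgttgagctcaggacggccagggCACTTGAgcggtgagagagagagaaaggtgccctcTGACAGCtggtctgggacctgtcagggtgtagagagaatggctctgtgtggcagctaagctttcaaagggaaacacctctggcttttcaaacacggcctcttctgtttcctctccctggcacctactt

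Hcn4, the pacemaker channel of the sinus node, had a member at chr9:58847578-58848253 that was lower by −0.64 ± 0.12 against Input (limma, adjusted p = 0.0408) and −0.6 ± 0.12 against PCM1 (limma, adjusted p = 0.0103). A further member of Hcn4 at chr9:58798045-58798494 was lower than in PCM1 by −0.83 (limma, adjusted p = 0.0489), and a member of Ryr2 at chr13:12068421-12068760 by −0.8 (limma, adjusted p = 0.0331). Kcnj2, an inward rectifier potassium channel, had a member at chr11:111132541-111133504 that was higher in PCM1 than in Input by 1.25 ± 0.24 (limma, adjusted p = 0.0379). All 4 calls of this list between Myc and PCM1 thus had lower values in Myc.

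Among the transcription factors, the strongest members of Meis1 (−0.61 ± 0.16, limma, adjusted p = 0.0362) and Gata6 (−0.32, limma, adjusted p = 0.0489) and a member of Irx4, a ventricular factor, at chr13:73170014-73170848 (−0.33, limma, adjusted p = 0.0458) were lower in Myc. The member of Tbx5 at chr5:119777823-119778192 was higher, with 7.99 and 6.84 for Input, 12.2 and 10.7 for Myc, then 4.27 and 5.56 for PCM1 (limma, 1.04 ± 0.25, adjusted p = 0.0245). Among sarcomere genes, the strongest member of Ttn was lower (−0.39 ± 0.08, limma, adjusted p = 0.0106).

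Members of Ldb3, a Z-disc protein, at chr14:34565715-34566179 (0.77 ± 0.17, limma, adjusted p = 0.0166) and of Myl2, the ventricular light chain, at chr5:122088943-122089256 (0.78 ± 0.23, limma, adjusted p = 0.0481) were higher on the main scale, but on log2 pileup the differences were −0.767 and −0.193, so their direction is open to the scale used. Outside the heart muscle lists, a member of the endothelial factor Erg at chr16:95385207-95385658 was lower in Myc (−0.96 ± 0.21, limma, adjusted p = 0.0142), and a member of the epicardial keratin Krt19 at chr11:100168902-100169721 was higher (1.19 ± 0.24, limma, adjusted p = 0.0122).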

How the data were processed

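Omni-ATAC-Seq was done by the authors on P1 heart nuclei. Per the labels and methods, reads were trimmed (fastq-mcf), aligned by Bowtie2 2.3.3.1 against mm10, marked for duplicates by Picard 2.2.1, cleared of blacklisted regions with bedtools 2.7.1 and shifted for Tn5, and the authors called peaks per library with MACS2 2.1.0.20160309 at a q-value threshold of 0.05. Each deposited peak has a fold, which is the ratio of summit pileup to local background. The deposited −log10 columns give the summit's p-value and q-value. The deposited score is −log10 q-value times 10 as a whole number (not used). Fold is relative to the background of its own library, and deeper libraries reach lower fold at the threshold. Depth was solved from fold and p-value with a 200 bp extension. Read counts were not used here, so precision rests on 2 libraries per group.

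Intervals were merged with bedtools 2.31.1. A TSS is the 5′ end of any GENCODE M21 transcript. Rank percentiles, motifs and places were computed in Python 3.11.15 (numpy 2.4.6, pandas 2.3.3, scipy 1.17.1, pysam 0.24.0, matplotlib 3.10.9). Groups were compared with limma 3.58.1 in R 4.3.3 on quantile-normalized log2 fold, with a mean-variance trend and all 6 libraries in 1 fit, and Benjamini-Hochberg adjustment. Distance classes and motifs were compared by exact permutation tests. Region building, the solving of the pileup, the sign-flip test, the search for a motif and the limma fit were tested on simulated data. The other steps were not. Members named are the 6 with the highest rank in their weakest library, the strongest of the 5 genes with most members in each heart list, the 3 largest called differences per contrast and direction, the 3 largest clusters, the strongest with each motif, and those at the distance limits. Called members of the other listed genes were named after their values were seen. The members and lists were chosen with earlier results of these data known. Of 12 erythroid markers, 11 were found in the annotation. Alternatives were other TSS definitions, a q-value of 0.01, equal numbers of peaks, stricter overlap, other scalings, windows and flanks, the replicate block and each library left out. The strongest member of 1 listed gene is not reported here.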

Additional observations from a re-analysis of the deposited data

How the results depend on the processing

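The number of distal shared regions stayed within 1.5 times of 16957 in every alternative, from 11309 when a peak had to cover at least 50% of the region in each library to 22419 with both PCM1 libraries left out, and from 16962 to 19318 with single libraries left out. The rank and fold differences from promoters ran from −36.9 to −35.3 and from −3.49 to −3.27 with single libraries left out and were −38.0 and −3.68 without PCM1, where 5 or 4 libraries cannot reach 0.05. Calls of Myc against Input, 42 in the report, numbered 95 after median centring, 1497 on log2 pileup, 708 on rank percentile, 71 with the lowest 25% of regions by mean log2 fold left out, 183 without PCM1, and 2 to 206 with single libraries left out. Calls of PCM1 against Input, 70 in the report, numbered 123, 1006 and 138 under the first 3 of these and 7 to 158 with single libraries left out. Calls of Myc against PCM1, 1163 in the report, numbered 3629 on log2 pileup, 2291 on rank percentile and 143 to 878 with single libraries left out. The cause was not tested, beyond the fewer libraries of the fits that leave 1 out, where the lone library of a group is assumed to vary like the others. Myc minus PCM1 reversed on log2 pileup at Ldb3 (−0.767) and Myl2 (−0.193). Of the other values of named members under alternatives, 275 kept direction and side of the threshold and 92 lost the call. The alternatives without both PCM1 libraries and those of the CTCF comparison were chosen after seeing the data.

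With the replicate block, calls numbered 61, 90 and 1242 for Myc against Input, PCM1 against Input and Myc against PCM1. Deviations of same-numbered libraries correlated at −0.004, −0.004 and 0.005, which cannot show whether these libraries share a preparation. The paper describes the input as an aliquot of cushion-purified nuclei whose remainder went to MAN-IP, so shared preparations are possible.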
